A study of Homo sapiens with 2 samples.

Results

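Small nucleolar RNA (snoRNA) genes were examined by box class in K562 cells exposed to the kinase inhibitor cabozantinib or to its solvent. The members were chosen by symbol and by summed counts: every gene named SNORA or SNORD with a number and at least 20 counts over both libraries was kept. Of 382 snoRNA genes in the deposited annotation, 220 had a count, and 117 reached the minimum, 43 of the H/ACA class (SNORA) and 74 of the C/D class (SNORD), among 25702 genes in all. SNORD103B, SNORD59B and SNORD63 lay just inside the minimum with 20 summed counts each, and SNORA65, SNORA66 and SNORD7 just outside with 19 each. Because the minimum used the counts of both libraries, a gene could pass through one library alone: 23 members had fewer than 10 counts with DMSO and 3 had fewer than 10 with cabozantinib.

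K562 is an established human erythroleukemia line that carries the BCR-ABL1 fusion, and cabozantinib (XL184) inhibits MET, VEGF receptors, AXL and other kinases. Asynchronous cells received 1 µM cabozantinib for 48 h, and the control cells received DMSO for the same 48 h. Total RNA was made into strand-specific libraries, 1 per group, so the differences lack replicates and are given without p-values. Counts assigned to genes came to 25025243 with DMSO and 25505289 with cabozantinib. All 10 erythroid markers fixed for K562 had counts, and their summed level went from 13534 to 37662 CPM (counts scaled to library size), with 9 of the 10 higher and GATA1 within 1.5-fold. MS4A1 (B cell), KRT5 (epithelial), CDH5 and VWF (endothelial) had no count in either library. A change in the number of cells of a kind and a change in RNA per cell cannot be told apart in these libraries, and the part of the erythroid shift in the snoRNA values was not tested.

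snoRNAs are short nucleolar RNAs that direct chemical changes on other RNAs by base pairing. C/D snoRNAs carry a C box near the 5′ end and a D box near the 3′ end, bind fibrillarin (FBL), NOP56, NOP58 and SNU13, and guide 2′-O-methylation. H/ACA snoRNAs fold into hairpins joined by an H box hinge and end in an ACA triplet, bind dyskerin (DKC1), GAR1, NHP2 and NOP10, and guide the conversion of uridine to pseudouridine. A few snoRNAs, among them U3, U14, U17 and U22, serve in the cleavage of the ribosomal RNA precursor. Most human snoRNAs are released from introns of a host gene after splicing, while U3 is transcribed from genes of its own.

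The sequences below, from the GENCODE 29 transcripts (GRCh38), show both architectures for some of the members with the largest called ratios, together with U3 and U17. In the C/D sequences the capitals mark a C box, TGATGA in the first 25 bases, and a D box, CTGA in the last 20 bases. SNORD35A, in the RPL13A gene, had the largest ratio of all members, and SNORD3A is the U3 gene.
SNORD35A: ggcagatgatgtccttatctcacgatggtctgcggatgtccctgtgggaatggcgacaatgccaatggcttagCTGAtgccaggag
SNORD4A: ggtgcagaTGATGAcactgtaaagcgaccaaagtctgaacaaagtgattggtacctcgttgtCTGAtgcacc
SNORD14B: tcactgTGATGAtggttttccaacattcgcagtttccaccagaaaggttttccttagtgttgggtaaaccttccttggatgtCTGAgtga
SNORD83B: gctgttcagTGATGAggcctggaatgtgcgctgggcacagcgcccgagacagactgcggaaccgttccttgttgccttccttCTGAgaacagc
SNORD101: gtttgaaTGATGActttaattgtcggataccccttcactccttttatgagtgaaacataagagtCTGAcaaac
SNORD3A: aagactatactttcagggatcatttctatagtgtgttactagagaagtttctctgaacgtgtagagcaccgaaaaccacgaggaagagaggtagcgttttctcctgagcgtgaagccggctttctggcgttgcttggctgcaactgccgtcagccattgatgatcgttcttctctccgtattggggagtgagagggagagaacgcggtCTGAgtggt
In the H/ACA sequences the capitals mark an H box, ANANNA at least 45 bases from either end, and an ACA in the last 8 bases. SNORA44 and SNORA16A lie in the same host, SNHG12, and SNORA73A is one of the U17 genes.
SNORA44: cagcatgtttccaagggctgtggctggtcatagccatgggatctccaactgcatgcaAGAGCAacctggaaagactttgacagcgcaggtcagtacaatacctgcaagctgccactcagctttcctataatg
SNORA16A: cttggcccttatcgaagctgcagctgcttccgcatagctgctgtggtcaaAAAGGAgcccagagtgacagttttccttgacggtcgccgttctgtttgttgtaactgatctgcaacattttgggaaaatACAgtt
SNORA33: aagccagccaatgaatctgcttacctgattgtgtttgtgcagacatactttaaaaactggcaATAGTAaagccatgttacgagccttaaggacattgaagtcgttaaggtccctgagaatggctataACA
SNORA73A: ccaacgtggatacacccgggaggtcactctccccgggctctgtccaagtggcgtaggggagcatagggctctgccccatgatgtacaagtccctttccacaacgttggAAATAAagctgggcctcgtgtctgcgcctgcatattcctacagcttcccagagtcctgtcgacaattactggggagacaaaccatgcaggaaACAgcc
GENCODE 29 transcripts were found for 102 of the 117 members, 59 C/D and 43 H/ACA. Searched on the transcript strand, a C box was present in 41 of the 59 C/D members and a D box in 58, and both in 40. An ACA was present in 38 of the 43 H/ACA members and an H box in 41, and both in 36. The boxes of the other class were less frequent: no H/ACA member had the C box and 4 had the D box, while 7 of the 59 C/D members had the ACA and 3 the H box. Sequences too short to hold the H box window could not match it. The C/D class has a median length of 75.5 nucleotides, so its low H box count was largely fixed by length. Over all 288 C/D transcripts in GENCODE 29, the C box was in 67.0% and the D box in 94.4%, and over its 149 H/ACA transcripts the ACA was in 89.9% and the H box in 96.6%. Most members therefore held the boxes of the class given by their symbol, with a D box window that was widened after the sequences were seen. A sequence without a match, such as the C box of SNORD35A or the ACA of SNORA44, lacks only those exact letters in the window searched.

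snoRNA counts were higher with cabozantinib in both box classes. The 117 members together held 3462 counts with DMSO and 5892 with cabozantinib, a 1.77-fold ratio after scaling (95% interval 1.70 to 1.85, counting error only). Of the members, 62 were higher and 2 lower by at least 1.5-fold with an interval that excluded no change, and 53 did not meet that rule. Among all 13391 genes with at least 20 counts, 8.01% were called higher and 12.3% lower in the same way. Among the 4928 genes with counts no greater than the highest member, the shares were 11.2% and 21.3%. Log2 ratios had a median of 0.89 over the members and 0.00414 over all genes tested. Counts per gene were low, from 2 to 356 with DMSO (median 18) and from 8 to 376 with cabozantinib (median 32), so that many single ratios had wide intervals. At 2-fold the members counted 51 higher and 2 lower, beside 2.92% and 6.17% of all genes tested. Restricted to the 91 members with at least 10 counts in both libraries, 46 rose and 1 fell (median log2 ratio 0.82), where 7.66% of 12946 genes were higher and 11.3% lower. Of the 23 members with fewer than 10 counts with DMSO, 16 were called higher and 0 lower. Of the 3 with fewer than 10 with cabozantinib, 0 were higher and 1 lower. For such genes the minimum itself requires more counts in the other library. The tallies by class, location, host type and intron length below include them. The 103 snoRNA genes under the minimum went from 316 to 449 counts in all, a 1.48-fold ratio, with more counts in 55 and fewer in 40.

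**Figure D1:**
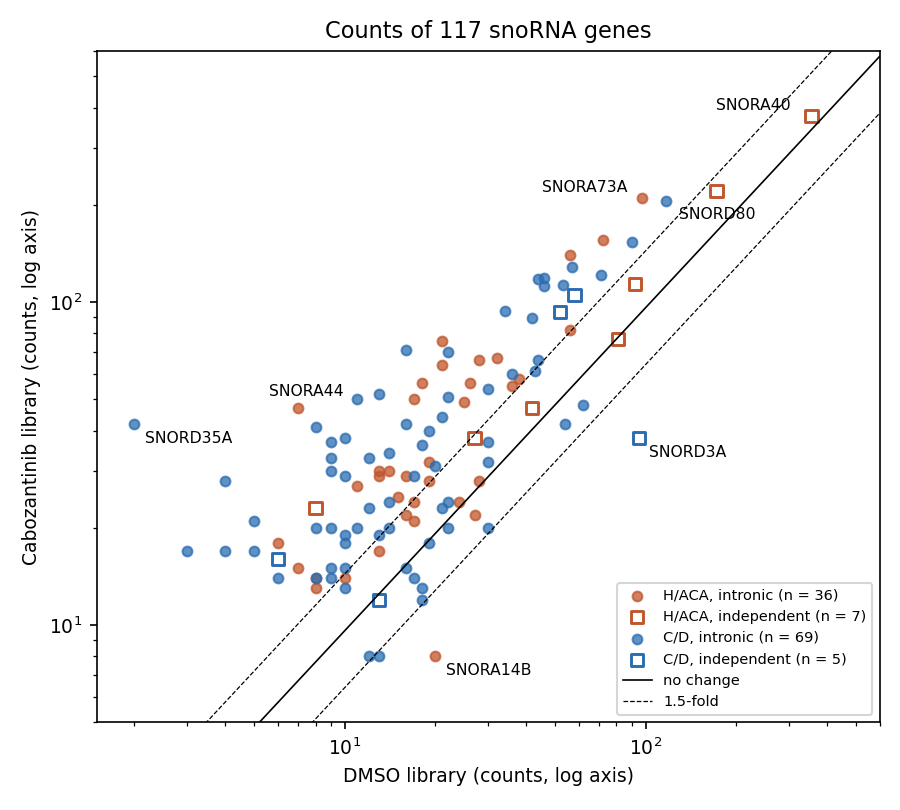
Counts of each of the 117 snoRNA genes in the DMSO library (horizontal, log axis) and in the cabozantinib library (vertical, log axis), filled circles for intronic and open squares for independent genes, with lines at no change and at 1.5-fold after scaling. Most points lie above the line of no change, SNORD35A (2 and 42 counts) lies farthest above it, and SNORD3A (95 and 38) and SNORA14B (20 and 8) lie below the lower 1.5-fold line.

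The snoRNAs that act in ribosomal RNA processing did not move together. SNORD3A (U3, chr17:19091329-19091545), the base-pairing RNA of the small-subunit processome, had 95 counts with DMSO and 38 with cabozantinib, a 2.38-fold lower value (interval 1.63 to 3.60). It was one of only 2 members that fell by the rule. Its near-identical copies SNORD3B-1, SNORD3B-2, SNORD3C and SNORD3D, all under the minimum, held 31 counts with DMSO and 10 with cabozantinib in all. Reads shared among these copies make the single genes uncertain, and the 5 genes together went from 126 to 48 counts.

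The U17, U22 and U14 genes, all intronic, had more counts with cabozantinib. SNORD13, another processing snoRNA, was under the minimum with 0 and 2 counts. SNORA73A, a U17 gene at chr1:28833877-28834083, rose from 97 to 210 counts (2.25-fold, 1.76 to 2.90). Its partner SNORA73B in another intron of SNHG3 rose from 56 to 140 (2.59-fold). The SNHG3 exons had 5446 and 5787 counts, a log2 ratio of 0.14. SNORD22 (U22), in an intron of SNHG1, rose from 90 to 154 (1.78-fold, 1.36 to 2.34).

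U14 is made from several near-identical genes in the introns of RPS13 and HSPA8. SNORD14B, in RPS13, rose from 13 to 52 counts (4.05-fold, 2.23 to 8.33), while SNORD14A in the same host had 11 and 20, an interval that included no change. SNORD14D, in HSPA8, rose from 5 to 21, and the HSPA8 copies SNORD14C (1 and 12 counts) and SNORD14E (0 and 11) were under the minimum. HSPA8, which encodes a constitutive heat shock chaperone, was itself higher, with 21298 and 73936 counts and a log2 ratio of 1.85. The 5 genes thus each had more counts with cabozantinib, in one host that was higher and in one (RPS13, log2 ratio 0.12) that was within 1.5-fold.

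The C/D class, which holds the methylation guides, had 1813 counts with DMSO and 3294 with cabozantinib (1.89-fold, 1.78 to 2.0). Its median log2 ratio was 0.90, and among its 74 members 41 rose and 1 fell. SNORD35A (chr19:49994432-49994517) rose from 2 to 42 counts, 17.7-fold with an interval of 5.68 to 186. Its neighbour in RPL13A, SNORD32A, rose from 9 to 30, while SNORD33 (4 and 6) and SNORD34 (1 and 4) were under the minimum. RPL13A exons had 14026 and 12458 counts, so that the snoRNA and host values lay apart at this locus.

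Several C/D genes in other hosts also rose, by less than SNORD35A. SNORD4A, in RPL23A, went from 11 to 50 counts (4.57-fold, 2.43 to 10.1), and SNORD42A in the same host from 5 to 17. SNORD101, in RPS12, went from 10 to 38 (3.81-fold), while SNORD100 in the same host had 14 and 20. SNORD50B, in the non-coding gene SNHG5, went from 9 to 37 (4.11-fold, 2.03 to 10.1). The intervals of SNORD101 (1.93 to 8.90) and SNORD100 (0.71 to 3.18) overlapped, so these counts do not show that members of one host differed.

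The C/D genes with the highest level per length, as mean CPM per kilobase over both libraries, were SNORD80 (90.5), SNORD31 (54.3), SNORD96A (53.1), SNORD25 (49.4) and SNORD45B (44.4). All 5 rose, SNORD96A in RACK1 from 71 to 121 counts and SNORD45B in RABGGTB from 46 to 112. SNORD45A, in the same host as SNORD45B, rose from 42 to 89, whereas SNORD45C had 30 and 37.

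The members without a higher call included C/D genes with fewer counts under cabozantinib. SNORD17 in SNX5 had 62 and 48 counts, SNORD23 in NOP53 54 and 42, SNORD102 in RPL21 30 and 20, and SNORD63 in HSPA9 12 and 8. None met the rule. The hosts HSPA9 (34608 and 20678 counts) and SNX5 (3656 and 2315) were themselves called lower.

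The H/ACA class, which holds the pseudouridylation guides, had 1649 counts with DMSO and 2598 with cabozantinib (1.64-fold, 1.54 to 1.74). Its median log2 ratio was 0.79, and among its 43 members 21 rose and 1 fell. SNORA44 (chr1:28906893-28907024) rose from 7 to 47 counts (6.59-fold, 3.14 to 18.3), and SNORA16A in the same host from 21 to 64 (3.12-fold). SNORA33 in RPS12 rose from 21 to 76 (3.70-fold, 2.30 to 6.43), and SNORA62 in RPSA from 18 to 56 (3.18-fold). SNORA14B (chr1:235291118-235291252), in an intron of TOMM20, fell from 20 to 8, 2.32-fold with an interval of 1.01 to 6.31 that nearly reached no change.

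Of the 5 H/ACA genes with the highest level per length, 2 rose. SNORA40 (114 CPM per kilobase) had 356 and 376 counts and a 1.10-fold ratio (0.95 to 1.27). SNORA18 (59.1) had 172 and 221, and SNORA8 (29.4) had 92 and 114, both under 1.5-fold. SNORA61 (35.0) rose from 72 to 156, and SNORA73A (29.6) rose as given above. The 3 that did not meet the rule lie in one cluster beside TAF1D, described below.

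The classes differed little by their medians. The H/ACA median was 0.11 below the C/D median on the log2 scale (difference -0.11), while the summed counts gave log2 ratios of 0.71 (0.62 to 0.80) for H/ACA and 0.92 (0.84 to 1.00) for C/D, intervals that did not overlap. Among intronic members both medians were 0.95, with 20 of 36 H/ACA and 38 of 69 C/D genes higher. The summed counts of intronic members gave 1.02 (0.90 to 1.14) for H/ACA and 0.99 (0.90 to 1.08) for C/D, intervals that overlapped. The 7 independent H/ACA genes, with SNORA40 and SNORA18 among them, held 778 of the 1649 H/ACA counts with DMSO and gave 0.26 (0.12 to 0.40). H/ACA genes are also longer, with a median of 134 nucleotides against 75.5, and the part of length in the values was not tested. Among the 44 other tested genes of at most 300 nucleotides, a set that includes microRNA genes, 27.3% were higher and 13.6% lower, and the median log2 ratio was 0.50. The members' share called higher was 53.0% and their median 0.89.

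**Figure D2:**
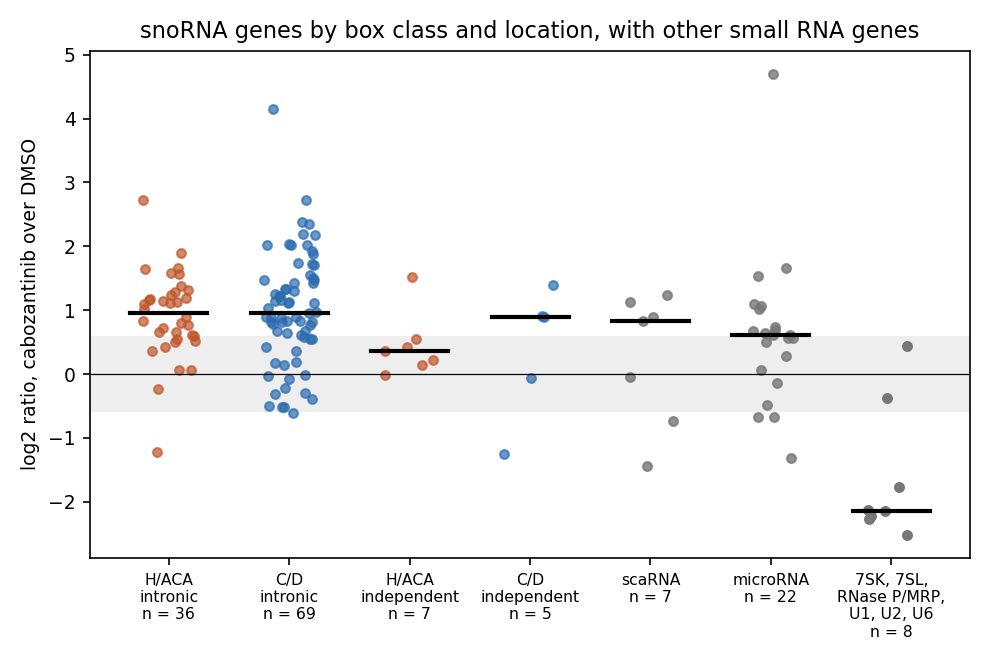
The log2 ratio of each gene, cabozantinib over DMSO, for snoRNA genes by box class and location and for 3 other sets of small RNA genes, with black bars at the medians and a grey band at 1.5-fold. Intronic H/ACA and C/D genes share a median of 0.95, independent H/ACA genes lie lower, and 6 of the 8 genes in the rightmost set are called lower.

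The medians of intronic and independent members lay farther apart than those of the classes. Inside introns of a same-strand gene lay 105 members, with 2460 counts with DMSO and 4732 with cabozantinib (2.0-fold, 1.91 to 2.10), of which 58 rose and 1 fell. Outside any same-strand gene lay 12 members, with 1002 and 1160 counts (1.20-fold, 1.11 to 1.31), of which 4 rose and 1 fell. The median log2 ratio was 0.95 for the intronic and 0.39 for the independent genes. The label independent depends on the annotation. GENCODE 29 places 11 of the 12 in a host, 8 in TAF1D, 2 in SNHG25 and 1 in RNF149, and only SNORD3A in none.

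The 8 genes beside TAF1D, SNORA1, SNORA8, SNORA18, SNORA25, SNORA32, SNORA40, SNORD5 and SNORD6, lie on chromosome 11 just downstream of the TAF1D span of the deposited annotation. They held 816 and 963 counts, a log2 ratio of 0.30 (0.16 to 0.43), and their median was 0.29. SNORD5 rose from 52 to 93 counts and SNORA1 from 8 to 23, while SNORA32 had 81 and 77, SNORA25 42 and 47 and SNORD6 13 and 12. TAF1D, a subunit of the RNA polymerase I selectivity factor, had 1756 and 1799 counts (log2 ratio 0.09). Of the remaining independent genes, SNORD104 rose from 58 to 105 and SNORD89 from 6 to 16 (not called with scaling by total counts), and SNORA50C had 27 and 38.

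Taken over all members, the rise of intronic snoRNA counts was not matched by the exons of their hosts. The 105 intronic members lie in 56 hosts, of which 5 were higher (HSPA8, SNHG12, NOP56, RPL21 and DANCR), 2 lower and 49 neither, with a median host log2 ratio of 0.12. With scaling by total counts RPL21 and DANCR (both 0.51) were no longer called higher, and SNHG15 (-0.60) was called lower. The snoRNA ratio exceeded that of its host in 91 of 105 members, by a median of 0.81 on the log2 scale. In 47 the whole interval lay above the interval of the host, and in 0 below it. Of the 92 members in hosts called neither way, 52 were higher and 1 lower. Across the 105 members, which share hosts and both libraries, the correlation of snoRNA with host log2 ratio was weak (Pearson r 0.16, Spearman rho 0.04). It differed by type of host. For the 32 members in other protein-coding hosts r was 0.55 (rho 0.51). For the 37 in ribosomal protein hosts it was -0.32 (-0.28), and for the 36 in non-coding hosts 0.24 (0.22). In the same order, the median excess over the host was 0.33, 0.81 and 1.23, with 7, 15 and 25 intervals wholly above the host's.

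Host exons and snoRNAs were also expressed per length. The count density of a member, per base, was a median of 4.35% of the density on its host's exons with DMSO and 8.75% with cabozantinib, and it increased in 91 of 105. Because lengths cancel in that change, the increase restates the snoRNA and host ratios given above and is no second result. With DMSO, 2 members exceeded their host, SNORD102 in RPL21 and SNORA57 in CSKMT. Counts on a snoRNA gene inside an intron can come from the mature snoRNA or from unspliced host RNA and spliced-out introns. Those sources cannot be told apart in gene counts, and their part in the result was not tested.

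**Figure D3:**
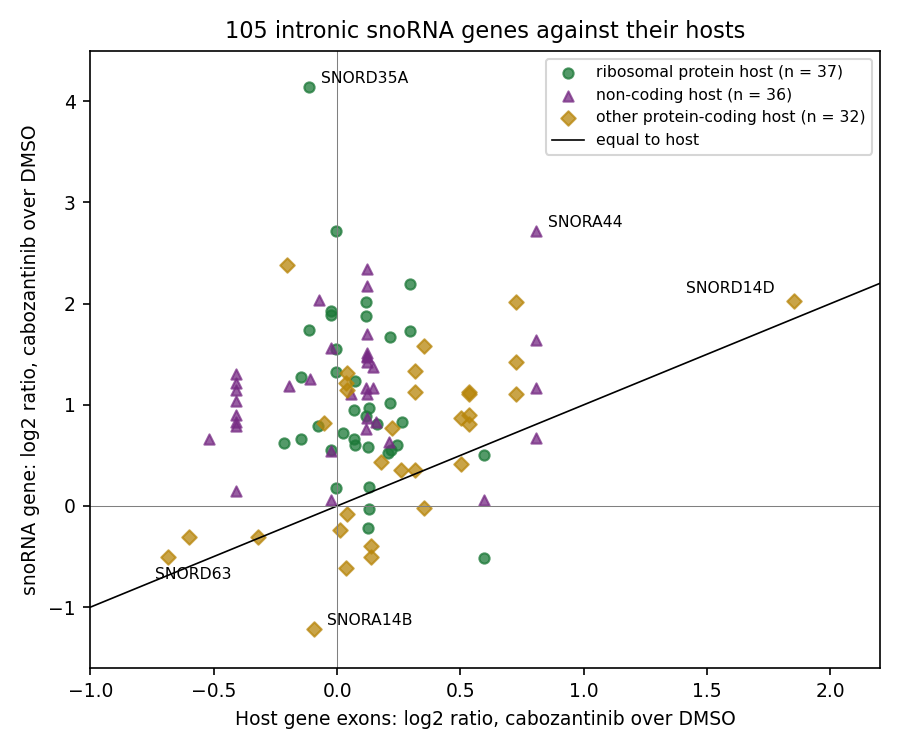
Log2 ratio of each of the 105 intronic snoRNA genes (vertical) against the log2 ratio of its host's exons (horizontal), by type of host, with a line where both are equal. In 91 of 105 genes the point lies above the line, while most hosts lie close to 0.

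snoRNA genes in non-coding hosts were called higher most often. In non-coding hosts 29 of 36 rose and 0 fell (median log2 ratio 1.17). In ribosomal protein genes 17 of 37 rose and 0 fell (median 0.83). In other protein-coding genes 12 of 32 rose and 1 fell (median 0.82). In the same order, summed counts gave log2 ratios of 1.14 (1.04 to 1.25), 1.04 (0.90 to 1.18) and 0.68 (0.54 to 0.82). The intervals of non-coding and ribosomal protein hosts overlapped. Median counts per member with DMSO were 22, 13 and 16.5, and a call depends on the counts as well as the ratio. The exons of all 3 kinds of host had medians near 0 (0.09, 0.12 and 0.14). Members of the non-coding set share few hosts: GAS5, SNHG1 and SNHG12 hold 21 of the 36.

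GAS5, a non-coding gene whose exons encode no protein and whose introns hold C/D snoRNAs, had 9 members, and all 9 rose. Its exons had 3683 and 3856 counts (log2 ratio 0.12), while the 9 snoRNA genes together had 320 and 796 (log2 ratio 1.37). The ratios ranged from 1.83-fold for SNORD80 (117 and 206 counts; 1.45 to 2.32) to 5.08-fold for SNORD77 (8 and 41; 2.47 to 13.2). Between these lay SNORD74 (21 and 44 counts), SNORD47 (46 and 119), SNORD76 (44 and 118), SNORD81 (12 and 33), SNORD44 (34 and 94), SNORD79 (22 and 70) and SNORD78 (16 and 71). SNORD44 and SNORD47, which are used elsewhere as reference RNAs in small RNA assays, rose 2.85-fold and 2.67-fold. The intervals of SNORD80 and SNORD78 (2.66 to 8.51) did not overlap. This pair was picked by its values among the 9 genes, and the intervals are not adjusted for that choice. Whether genes of this one host differed by more than their counting error was not tested.

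SNHG1, another non-coding host of C/D snoRNAs, had 8 members, of which 7 rose. Its exons went from 7850 to 5676 counts, a log2 ratio of -0.41, while the 8 genes together went from 328 to 611 (log2 ratio 0.95). SNORD30 (14 and 34 counts), SNORD31 (57 and 128), SNORD25 (53 and 113), SNORD29 (18 and 36), SNORD26 (30 and 54), SNORD22 and SNORD28 (36 and 60) met the rule. SNORD27 had 30 and 32 counts and a log2 ratio of 0.15. Host exons and intron-encoded snoRNAs thus had ratios of opposite sign in this gene.

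SNHG12, whose exons were higher (548 and 921 counts, log2 ratio 0.81), holds H/ACA genes and 1 C/D gene. Its members went from 120 to 298 counts, with SNORA44, SNORA16A and SNORA61 called higher and SNORD99 at 20 and 31. In RPL3, a ribosomal protein gene with 38440 and 36803 exon counts, the members went from 44 to 101 counts. SNORD83B rose from 4 to 28 (6.59-fold, 2.55 to 28.6), SNORD83A from 10 to 29 and SNORD43 from 8 to 20, and SNORD139 had 22 and 24. In EIF4A2, which encodes a translation initiation factor (8185 and 11397 counts, log2 ratio 0.53), the members went from 76 to 150: SNORA81 (32 and 67) and SNORA63 (14 and 30) rose, and SNORA4 (16 and 29) and SNORD2 (14 and 24) did not meet the rule.

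Other hosts held from 1 to 3 members each, and examples follow. In ribosomal protein genes, SNORA64 (28 and 66 counts) and SNORA10 (38 and 58) in RPS2, SNORA6 (25 and 49) in RPSA, SNORA3A (13 and 30) in RPL27A and SNORA70 (56 and 82) in RPL10 rose. The calls of SNORA10 and SNORA70 ended with scaling by total counts. The members in RPL17, RPL4 and RPL21 did not meet the rule, so that ribosomal protein hosts included genes with all members called higher and genes with none. A call depends on the counts as well as the ratio, so this does not show that the hosts differed.

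In other protein-coding hosts, SNORA67 (26 and 56 counts) and SNORA48 (11 and 27) in EIF4A1, SNORA57 (17 and 50) in CSKMT and SNORD59B (3 and 17) in ATP5F1B rose, while SNORD10 in EIF4A1 had 22 and 20. SNORD59B reached the minimum mainly through its cabozantinib counts. In non-coding hosts, SNORD88B (22 and 51) in C19orf48, SNORD87 (19 and 40) in SNHG6, SNORA24 (13 and 29) in SNHG8 and SNORD49A (44 and 66) in LRRC75A-AS1 rose, the last not with scaling by total counts. SNHG17 held SNORA71A, which rose from 6 to 18, with SNORA71B (17 and 24) and SNORA71C (24 and 24), which did not meet the rule. SNORA26 in DANCR had 28 and 28 counts while the exons of DANCR had 1608 and 2335.

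**Figure D4:**
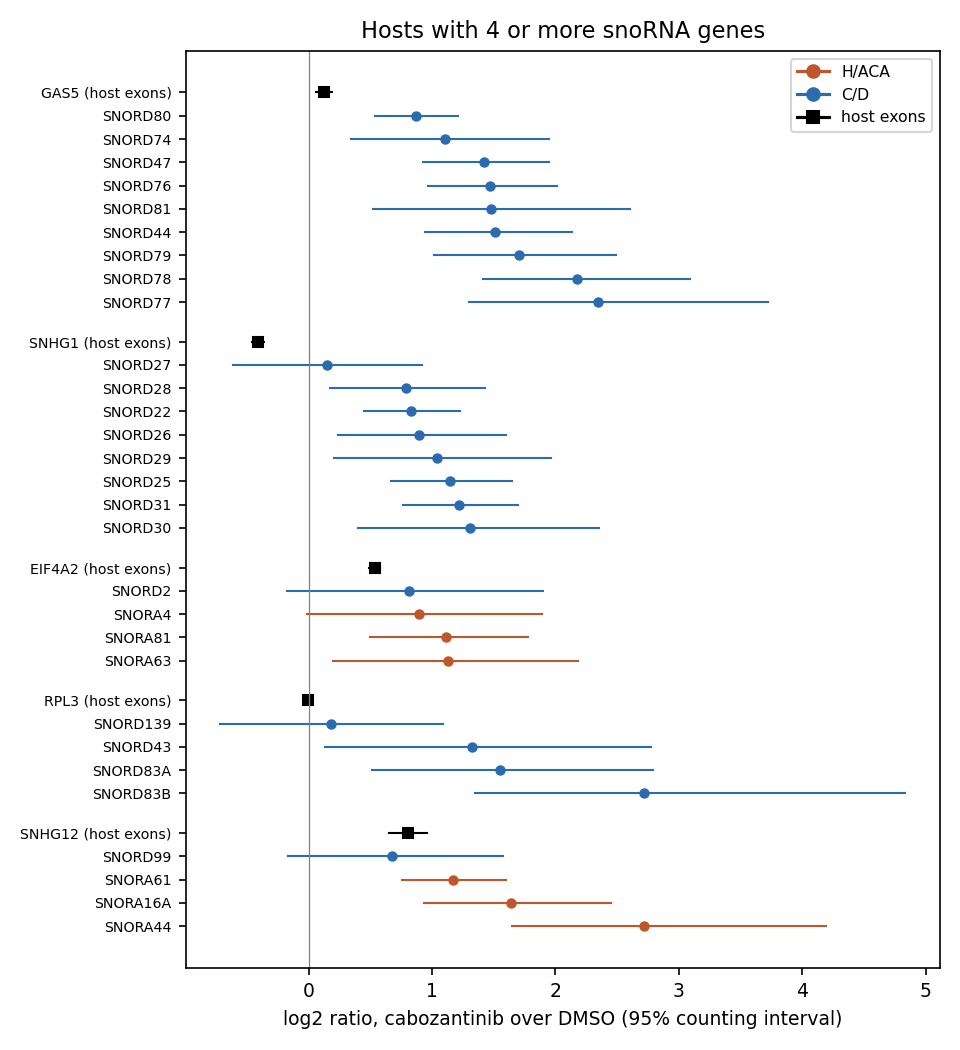
Log2 ratio, cabozantinib over DMSO, with 95% counting intervals, of the snoRNA genes of every host with 4 or more members (circles, colored by box class) and of the host's exons (black squares). All 9 GAS5 members lie right of their host, and in SNHG1 the host lies at -0.41 while its members sum to 0.95.

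Members in short introns had larger ratios than those in long ones. The introns that hold members had a median length of 481 nucleotides (179 to 11336). In introns up to that length 37 of 53 members rose and 0 fell (median log2 ratio 1.15). In longer introns 21 of 52 rose and 1 fell (median 0.70). This division was chosen after the values were seen. GAS5 and SNHG1 hold 15 of the 53, and without them 23 of 38 rose (median 1.12). C/D members lay a median of 100 nucleotides from the downstream exon, with 34 of 69 between 50 and 100, and H/ACA members a median of 196.5, with 9 of 36 in that range.

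**Figure D5:**
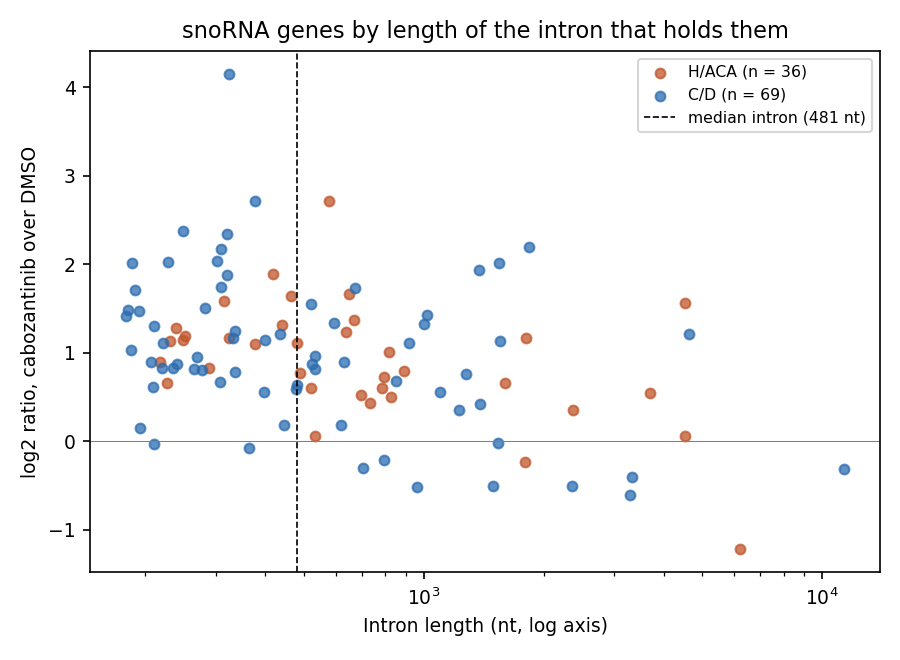
Log2 ratio of the 105 intronic snoRNA genes (vertical) against the length of the intron that holds them (horizontal, log axis), colored by box class, with a dashed line at the median intron of 481 nucleotides. The median ratio is 1.15 left of or on the line and 0.70 right of it.

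RNA counts of the genes for proteins that bind, assemble and process snoRNAs changed less than the snoRNA counts, and protein was not measured. On this list of 50 genes 5 (10.0%) rose and 0 fell (median log2 ratio 0.23). The share called higher was near that of all genes, of which 8.01% were called higher and 12.3% lower. Of the C/D core proteins NOP56 rose from 4010 to 6376 counts (1.65-fold), while FBL, the methyltransferase, had a log2 ratio of 0.03, NOP58 0.39 and SNU13 0.12. Of the H/ACA core none met the rule: DKC1, the pseudouridine synthase, had 0.22, GAR1 0.50, NHP2 -0.09 and NOP10 -0.12. None of the 14 assembly factors and none of the 10 processing and turnover genes met it, among them DBR1, which debranches intron lariats (0.50), and PARN, a deadenylase (-0.43). In the U3 particle and small-subunit processome set 4 of 18 rose, UTP20 (1053 to 2001 counts), UTP15 (717 to 1122), UTP3 and IMP3, while the U3 gene itself fell. With scaling by total counts, UTP3 (log2 ratio 0.55) and IMP3 (0.54) were no longer called. NOP56 is also a host: in its introns SNORD110 rose from 16 to 42 and SNORD57 from 4 to 17, and SNORA51 had 7 and 15. SNORA56, in an intron of DKC1, had 15 and 25.

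The authors' deposited table gives each gene a posterior probability of differential expression and a shrunken fold. There 21 of the 117 members had a probability of at least 0.95, 14 C/D and 7 H/ACA, all 21 with a fold above 1 in cabozantinib, against 1.75% of all genes tested called higher and 4.08% lower. In the authors' deposited table the fold was 17.3 for SNORD35A, 6.52 for SNORA44 and 2.23 for SNORA73A. These values come from the same 2 libraries and are no independent support.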

How the data were processed

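RNA sequencing counts came from 1 library per group, so no test was possible. The authors deposited whole-number counts per Entrez gene. The alignment used Rsubread and hg19, per the file headers; hg19 and GRCh37 also stand in the submitters' processing notes. The sources used here do not give the strand setting, the handling of multi-mapped reads, or whether poly(A) selection or ribosomal RNA depletion was done. The authors' deposited table holds posterior probabilities, treated as a score between 0 and 1, and fold changes as a ratio. It also has 4 value columns that no label names, which were not used.

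Counts were scaled with TMM (edgeR 4.0.16, R 4.3.3), and ratios used counts plus 0.5. Intervals of the ratio are exact (Clopper-Pearson, 95%) and cover counting error only. A gene was called at 1.5-fold (log2 0.58) with an interval excluding no change. Genes under 20 summed counts were left out. Hosts were the smallest same-strand gene span holding a member clear of exons, on hg19 positions counted from 1. Sequences are GENCODE 29 transcripts and no hg19 sequence was used. The D box window was widened from a narrower one after the sequences were seen. Named genes were the 15 higher members with bounds farthest from no change, all lower members, the highest 5 per class by level, processing and reference snoRNAs, hosts with 4 or more members, and genes at the minimum; other members are named as examples chosen after their values were seen. Members, lists and rules were chosen with earlier results of these data known. A few members and hosts are not reported here by name.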

Additional observations from a re-analysis of the deposited data

How the results depend on the processing

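Of 99 alternative values, 90 stayed within 1.5 times the main count or within an interval around the main value. For medians that interval ran between the median lower and upper bounds of single genes, such as 0.15 to 1.95 for C/D. For the class difference it was -1.91 to 1.62. Intervals this wide made agreement of the medians and their difference nearly certain, so the count of 90 says little about stability. The median log2 ratio ranged from 0.82 to 0.97 for C/D, 0.51 to 1.01 for H/ACA and 0.83 to 1.14 for intronic genes, and the snoRNA minus host median from 0.70 to 1.04. The H/ACA minus C/D difference ranged from -0.39 to 0.04, the latter with at least 50 summed counts. With scaling by total counts the summed C/D log2 ratio was 0.83, 3 snoRNP genes were called, not 5, and 6 of the 62 higher members lost their call (SNORA9, SNORA10, SNORA70, SNORD12, SNORD49A and SNORD89). At 2-fold 0 snoRNP genes were called. The number of higher members was 34 with 1 entry per host, 39 of 55 with at least 50 counts and 17 of 24 with at least 100, and 1 was lower at either minimum. These have fewer entries by construction. Hosts from GENCODE 29 left only SNORD3A as independent, at -1.25. GENCODE hosts and host entries were chosen after seeing the data. No paired analysis was possible because each group holds 1 library. Depth limits the genes with few counts, and a member at 10 counts needs a large ratio to be called.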

Other observations

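Other small RNA genes were set beside the snoRNA genes, in sets chosen after the values were seen. Of the 8 genes for 7SK, 7SL, RNase P, RNase MRP, U1, U2 and U6 RNA with at least 20 counts, 6 were lower and 0 higher. These RNAs were taken to come from genes of their own, and hosts were not searched for in the annotation. RN7SK, a regulator of transcription elongation, had 543 counts with DMSO and 111 with cabozantinib (4.69-fold lower, 3.83 to 5.82). RN7SL1, the RNA of the signal recognition particle, had 279 and 61, RPPH1 (RNase P) 74 and 12, and RMRP (RNase MRP) 115 and 32. RNU6-6P had 39 and 51 and RNU2-2P 15 and 11, and neither met the rule. SNORD3A, the only member with no host in either annotation, was lower, and of the 105 members in introns 58 rose and 1 fell. Any link between having a host and the direction of the ratio was not tested, and among members it would rest on 1 gene.

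Of 7 scaRNA genes, the Cajal body relatives of snoRNAs, 3 rose (SCARNA9, SCARNA12 and SCARNA27) and 0 fell, and the median log2 ratio was 0.83. Among 22 microRNA genes 8 rose and 1 fell (median 0.61), and inside introns 4 of 14 rose and 0 fell (median 0.61). The RefSeq promoter table (GRCh38.p14) held 49 of the hosts. In 44.9% of them the start base was a C followed by at least 4 C or T, the letters of a 5′ terminal pyrimidine tract, against 4.07% of 35116 promoters. Ribosomal protein genes are 21 of the 56 hosts, and the part of this composition in the share was not tested.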
